A study of Mus musculus with 24 samples.

Results

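Base excision repair (BER) starts when a DNA glycosylase such as Ogg1 or Mutyh removes a damaged or mispaired base, and the genes described here act after that step. They are the 9 listed genes of strand incision, end processing, gap filling and ligation, namely Apex1, Xrcc1, Lig3, Lig1, Polb, Parp1, Parp2, Aptx and Fen1. They were picked by symbol, not by their levels, from the 55254 genes of the count tables, although earlier results of these data were known. All 9 had enough counts to be tested in every comparison. Hippocampal nuclei came from male C57BL/6N mice aged 6 months and were sorted by flow cytometry into NeuN+ nuclei, which are neuronal, and NeuN- nuclei, which are mainly glial. The 4 genotypes were wild type (WT) C57BL/6N, Mutyh-/-, Ogg1-/- and the double knockout (DKO) bred from both single knockouts. Each genotype and fraction had 3 replicate libraries of nuclear RNA, which made 24 libraries. The knockouts are not restricted to a cell type, so neurons and glia of a mouse carry the same alleles. Nuclei of several animals of a genotype were pooled, but the descriptions of the pooling differ, and whether the replicates are independent pools is unclear. The p-values below therefore measure the spread between these libraries, which may be partly technical.

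In BER, the endonuclease Apex1 cuts the strand at the site that lost its base, and Parp1 and Parp2 bind the resulting break and mark it with ADP-ribose, which recruits the scaffold Xrcc1. In the short-patch route, Polb trims the sugar phosphate and inserts the missing nucleotide, and Lig3, held by Xrcc1, seals the nick. In the long-patch route, replicative polymerases displace a flap, Fen1 cuts the flap off and Lig1 seals the nick, whereas Aptx removes the adenylate that a failed ligation leaves on the DNA end. Neurons do not divide and thus lack the S phase in which Fen1 and Lig1 also join the fragments of the lagging strand.

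The upstream sequence of 3 of the genes is shown because their levels differed most between NeuN+ and NeuN- nuclei, in opposite directions (Parp1 and Lig1), or did not pass the test (Aptx). RefSeq tables of build GRCm38.p6 held promoter windows from 250 bases before to 50 after a transcript start for 8 of the 9 genes, in 12 windows, and only bases upstream of the start are printed, as far as they lie outside annotated exons. All sequences run 5′ to 3′ on the strand of the gene, and the capitals mark the GC box GGGCGG, written CCGCCC where it lies on the opposite strand, and the CCAAT box. Lig1 and Aptx each have another start in these tables, whose window is not printed, and the other window of Aptx holds 2 GC boxes, at -99 and -9. Parp1 is on the plus strand of chr1:180568641-180568890, Lig1 on the plus strand of chr7:13278722-13278825 and Aptx on the minus strand of chr4:40703195-40703444.
Parp1: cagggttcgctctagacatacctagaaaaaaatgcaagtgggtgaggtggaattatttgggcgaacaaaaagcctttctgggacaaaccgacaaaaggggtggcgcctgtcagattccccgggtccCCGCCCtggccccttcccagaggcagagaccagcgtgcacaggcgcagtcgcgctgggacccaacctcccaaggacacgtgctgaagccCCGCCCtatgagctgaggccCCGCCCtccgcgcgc
Lig1: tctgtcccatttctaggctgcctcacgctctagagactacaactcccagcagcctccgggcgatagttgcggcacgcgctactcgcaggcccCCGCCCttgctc
Aptx: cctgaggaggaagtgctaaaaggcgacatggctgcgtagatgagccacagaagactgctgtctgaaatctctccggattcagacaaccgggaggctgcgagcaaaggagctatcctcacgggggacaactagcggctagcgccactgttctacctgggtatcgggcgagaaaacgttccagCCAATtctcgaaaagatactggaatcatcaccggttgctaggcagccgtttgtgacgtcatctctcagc

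The GC box was found on either strand in 7 of the 12 windows of these genes and in 35.7% of all 32851 promoter windows, and CCAAT in 3 of the 12 and in 37.4% of all. The letters TTTCCCGC and TTTGGCGC, forms of the E2F motif of genes used in S phase, were in 0 of the 12 windows and in 1.07% and 0.514% of all windows. These are matches of letters in a fixed window and not mapped binding sites.

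The libraries held between 56563586 and 96192142 counts, with a median of 70434612, and the lowest count of any of the genes was 75, for Fen1 in a NeuN+ library, where counting error alone is 11.5%. All 8 neuronal markers, Rbfox3 (which encodes NeuN) among them, were higher in NeuN+ nuclei of WT, and all listed markers of astrocytes, oligodendrocytes, their precursors, microglia and endothelium were higher in NeuN-. Levels are given as CPM, the count relative to the library total scaled by its TMM factor. The summed level of 5 oligodendrocyte markers ran from 117.4 to 139.5 CPM in NeuN+ and from 4498 to 6764 CPM in NeuN-. Other glial lists differed less. For 6 astrocyte markers it ran from 270.9 to 358.2 CPM in NeuN+ and from 2788 to 4111 CPM in NeuN-. For 5 microglial markers it ran from 84.0 to 88.9 CPM in NeuN+ and from 442.4 to 576.5 CPM in NeuN-. By the sample labels, the fractions were on different lanes, so lane and nuclear fraction cannot be told apart. In these bulk libraries, a lower level may mean fewer cells that express a gene or less RNA per cell, and these cannot be told apart. As a check of the labels, Mutyh was higher in the libraries labelled Mutyh-/- and DKO than in WT, by 3.15 and 2.99 on the log2 scale in NeuN+ and by 1.85 and 1.61 in NeuN-. Ogg1 differed from WT by at most 0.09 in the libraries labelled Ogg1-/- and DKO, and counts per gene do not show which exons were read. Ogg1 shares 10.6% of its exon bases with Camk1 on the opposite strand. Camk1 itself was lower than WT in Ogg1-/- and DKO, at -0.47 and -0.55 in NeuN+ and at -0.58 and -0.585 in NeuN-. The part of Camk1 in the values of Ogg1 was not tested. The gene-level counts thus do not show the loss of either transcript.

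Polb and Parp1 had the highest levels per length of the 9 genes. CPM per kb divides CPM by the length of the merged exons in kilobases. In NeuN+ nuclei the median over 12 libraries was 22.2 CPM per kb for Polb and 15.1 for Parp1, and the 12 libraries of Polb (19.3 to 24.95) did not overlap those of Parp1 (14.3 to 17.1). Aptx (3.05), Xrcc1 (2.88), Lig3 (2.83) and Parp2 (2.40) followed, and each overlapped its neighbour in this order. Apex1 (2.27) overlapped Parp2, while Lig1 (1.33) and Fen1 (0.571) each lay below all libraries of the gene above them. In NeuN- nuclei the order began again with Polb (13.6) and Parp1 (7.01) and ended with Lig1 (2.88) and Fen1 (1.045), but Lig3 (4.80) and Parp2 (3.49) came next. There Lig3 lay above all libraries of Parp2, whereas Xrcc1 (3.17), Aptx (2.91), Apex1 (2.89) and Lig1 (2.88) overlapped each other.

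**Figure D1:**
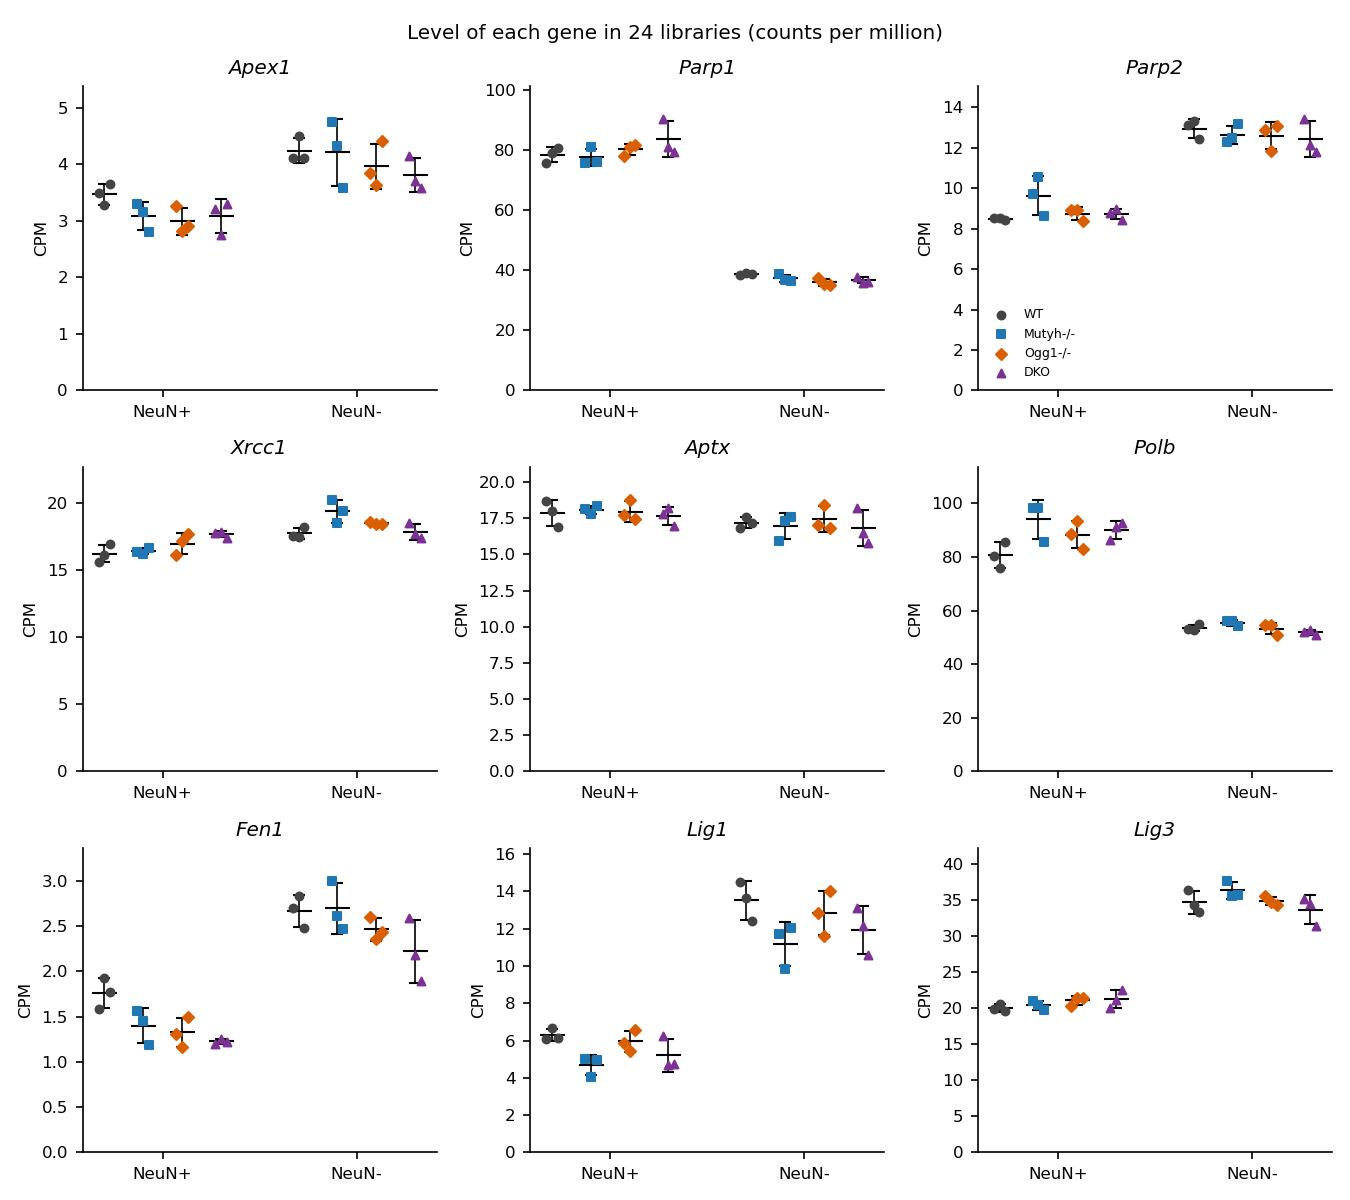
Level of each gene in CPM (y axis, starting at 0) in NeuN+ and NeuN- nuclei; each point is a library, colour and shape give the genotype, and the bar is the mean ± SD of 3 libraries. Parp1 lies between 75.5 and 90.4 CPM in all NeuN+ libraries and between 34.9 and 39.1 in all NeuN- libraries, whereas Aptx overlaps between the fractions.

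The first comparison asks how the RNA of these genes differs between NeuN+ and NeuN- nuclei of the hippocampus. In WT, Parp1 and Polb were higher in NeuN+ nuclei, while Lig1, Lig3, Parp2, Fen1, Apex1 and Xrcc1 were higher in NeuN- nuclei, and Aptx did not pass the test. Thus 8 of 9 genes had an adjusted p under 0.05, beside 72.4% of the 33523 genes tested. The 2 genes higher in NeuN+ compare with 36.1% of all genes in that direction, and the 6 higher in NeuN- with 36.3%. With the additional limit of an absolute log2 difference above 1, Parp1 and Lig1 were called, beside 42.9% of all genes. With libraries scaled to total counts, which moved the median of all genes to -0.25, 0 genes passed the limit in the direction of NeuN+ (Parp1 at 0.78) and 2 in that of NeuN- (Lig1 and Lig3, at -1.02 for Lig3). The median log2 difference (NeuN+ minus NeuN-) was -0.29 over the 9 genes and -0.01 over all genes tested. The 3 WT libraries of NeuN+ did not overlap those of NeuN- for 8 of the 9, beside 76.1% of all genes. The share of the 9 called by the adjusted p or by groups apart was near that of all genes, whereas more were higher in NeuN- and fewer were past the limit of 1 than the shares of all genes would give, which with 9 chosen genes is a description only. Their values follow by role.

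Apex1, the endonuclease that incises the site, had 3.49, 3.27 and 3.649 CPM in the 3 WT libraries of NeuN+ and 4.11, 4.50 and 4.11 CPM in those of NeuN-. The WT groups did not overlap, and the log2 difference was -0.29 (SE 0.111, adjusted p = 0.0238). This call was lost without NeuN+ WT replicate 2 (adjusted p = 0.0887) or NeuN- WT replicate 2 (adjusted p = 0.0849). Over all genotypes the NeuN+ libraries (2.74 to 3.65 CPM) overlapped the NeuN- libraries (3.57 to 4.75). Apex1 shares 61.7% of its exon bases with Pip4p1 on the opposite strand, a gene with 8.59 to 9.94 CPM in NeuN+ and 15.3 to 18.4 in NeuN-. How reads in shared exons were assigned is not given in the sources used here, and the part of Pip4p1 in the values of Apex1 was not tested.

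Parp1, which makes most of the ADP-ribose at DNA breaks, had 75.5, 79.0 and 80.5 CPM in NeuN+ of WT and 38.3, 39.1 and 38.75 CPM in NeuN-. It was thus 2.02-fold higher in NeuN+ (log2 difference 1.02, SE 0.0504, adjusted p = 1.98e-14). This value lies at the limit of 1, and Parp1 in WT was just below it with DESeq2 size factors (0.9991) and without NeuN+ WT replicate 3 (0.9973). Its paralog Parp2, which acts at the same breaks, went the other way, with 8.53, 8.54 and 8.42 CPM in NeuN+ and 13.1, 13.3 and 12.4 in NeuN- (log2 difference -0.61, SE 0.0695, adjusted p = 5.58e-08). In all 4 genotypes together, the 12 NeuN+ libraries of Parp1 lay above the 12 NeuN- libraries, and those of Parp2 lay below. The share of all genes that are apart over 12 against 12 libraries was not counted. Parp2 shares no exon bases with another gene, and Parp1 shares 0.132% of its own with Mir6904.

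Xrcc1, the scaffold that holds Lig3 and Polb, differed little, with 15.6, 16.2 and 16.9 CPM in NeuN+ of WT and 17.5, 17.5 and 18.25 CPM in NeuN-. The difference passed the test at -0.13 (SE 0.0494, adjusted p = 0.0237), but not without a low-count filter (adjusted p = 0.0501) or without NeuN+ WT replicate 1, NeuN+ WT replicate 2 or NeuN- WT replicate 3 (adjusted p = 0.107, 0.0582 and 0.0871). Aptx, the end-processing enzyme, had 18.7, 18.04 and 16.9 CPM in NeuN+ and 16.9, 17.6 and 17.2 in NeuN-. These groups overlapped, and the log2 difference of 0.06 (95% confidence interval -0.07 to 0.18) had an adjusted p of 0.41. Its direction depended on the scaling: with total counts in place of TMM factors, Aptx was at -0.18 in WT and was then called lower in NeuN+ (adjusted p = 0.0157). The same held for DKO (-0.21, adjusted p = 0.00464) and Ogg1-/- (-0.20, adjusted p = 0.00736), while Mutyh-/- was at -0.13 (adjusted p = 0.0722). Neither gene shares exon bases with a neighbour.

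Polb, the polymerase of the short patch, had 80.4, 76.1 and 85.6 CPM in NeuN+ of WT and 53.3, 52.7 and 54.9 CPM in NeuN-, a 1.504-fold difference (log2 difference 0.59, SE 0.0578, adjusted p = 4.35e-09). Fen1, which cuts the flap of the long patch, was lower in NeuN+, with 1.59, 1.93 and 1.77 CPM against 2.70, 2.83 and 2.48 CPM in NeuN- (log2 difference -0.60, SE 0.129, adjusted p = 0.000267). Fen1 and the antisense gene Gm10143 share 78.8% of the exon bases of Fen1. The counts of Gm10143 were 80.0% to 97.7% of those of Fen1 in NeuN+ and 79.7% to 89.8% in NeuN-, so what is listed under Fen1 and under Gm10143 cannot be told apart in these tables. Fen1 also shares 5.37% of its exon bases with Tmem258 on the opposite strand, which differed by -1.17 between the fractions of WT. The part of Tmem258 in the values of Fen1 was not tested.

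The ligases were both higher in NeuN- nuclei. Lig1, the ligase of the long patch and of replication, had 6.07, 6.67 and 6.125 CPM in NeuN+ of WT and 14.5, 13.7 and 12.4 CPM in NeuN- (log2 difference -1.11, SE 0.117, adjusted p = 1.5e-08). Lig3, the partner of Xrcc1, had 19.9, 20.7 and 19.65 CPM in NeuN+ and 36.4, 34.4 and 33.4 in NeuN- (log2 difference -0.79, SE 0.0537, adjusted p = 6.39e-12). Every NeuN- library of the 4 genotypes lay above every NeuN+ library for both ligases, and the share of all genes for this was not counted. Lig3 shares 25.1% of its exon bases with Rffl on the opposite strand, and Rffl differed far more between the fractions, with 21.3 to 23.9 CPM in NeuN+ and 172 to 216 CPM in NeuN- (log2 difference in WT -3.16). The part of Rffl in the level of Lig3 in NeuN- was not tested. Lig1 shares 5.79% of its exon bases with Zswim9, which differed by -0.36.

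The same pattern was measured in each knockout, whose libraries are separate from those of WT. Values are given in the order Mutyh-/-, Ogg1-/-, DKO. Parp1 was higher in NeuN+ by 1.06, 1.16 and 1.19, and Polb by 0.76, 0.73 and 0.80. Lig1 was lower in NeuN+, at -1.26, -1.10 and -1.2, and Lig3 at -0.83, -0.73 and -0.66. Parp2 was at -0.39, -0.53 and -0.51, Fen1 at -0.95, -0.90 and -0.86 and Apex1 at -0.45, -0.41 and -0.31. Each of these values had an adjusted p under 0.05, although that of Apex1 in DKO did not without NeuN+ DKO replicate 2 (0.0952) or NeuN- DKO replicate 1 (0.0889). With Xrcc1, described next, the calls were 8, 8 and 7 of the 9 genes, beside 73%, 73.3% and 73.9% of all genes. The 2 genes higher in NeuN+ compare with 35.9%, 36.1% and 35.6% of all genes, and the 6, 6 and 5 genes higher in NeuN- with 37.1%, 37.3% and 38.2%. Past the limit of 1 there were again Parp1 and Lig1 in each knockout (43.9%, 43.9% and 44.4% of all genes), and the libraries of the fractions were apart for 9, 8 and 7 of the 9 genes (75.1%, 76.1% and 74.6%). With total-count scaling Parp1 was below the limit in every knockout (0.84, 0.92 and 0.91) and Fen1 past it (-1.17, -1.13 and -1.14), as was Lig3 in Mutyh-/- (-1.05).

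Xrcc1 was at -0.24 in Mutyh-/- and -0.12 in Ogg1-/-, both past the test, and at -0.02 in DKO (adjusted p = 0.789). With total-count scaling, Xrcc1 passed in DKO as well (-0.30, adjusted p = 3.9e-05). Its call in Ogg1-/- was lost without a low-count filter (adjusted p = 0.0835), with the likelihood ratio test (0.053), and without NeuN+ Ogg1-/- replicate 1 (0.153) or any of the 3 NeuN- Ogg1-/- libraries (0.0635, 0.0565 and 0.0548 for replicates 1, 2 and 3). The 3 DKO libraries of Xrcc1 in NeuN+ (17.8, 17.8 and 17.4 CPM) overlapped those in NeuN- (18.5, 17.7 and 17.4 CPM). Fen1 in Mutyh-/- passed the limit of 1 without NeuN+ Mutyh-/- replicate 1 (-1.04) or without NeuN- Mutyh-/- replicate 3 (-1.01).

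**Figure D2:**
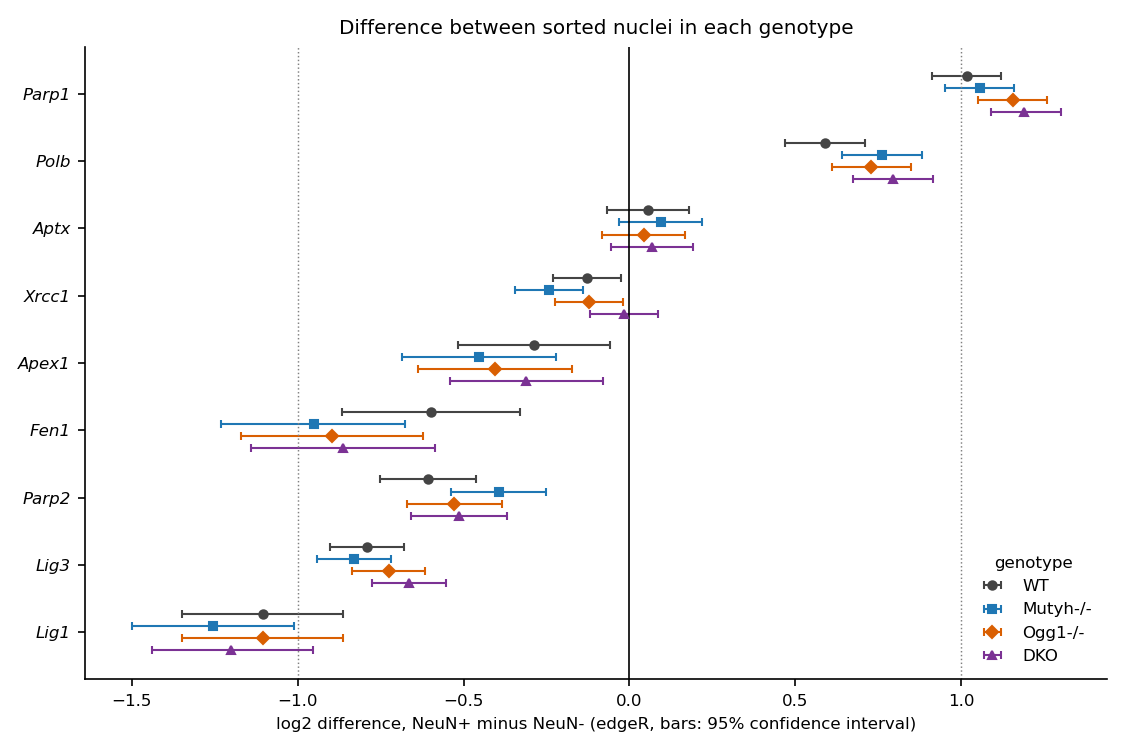
Log2 difference between NeuN+ and NeuN- nuclei (x axis, positive values are higher in NeuN+) of each gene in each of the 4 genotypes, with the 95% confidence interval of edgeR's fit; dotted lines mark -1 and 1. Parp1 and Polb lie right of 0 and Lig1, Lig3, Parp2, Fen1 and Apex1 left of 0 in every genotype. Aptx lies slightly right of 0, with intervals that span 0. All values drawn use TMM scaling, and those with total counts, below 0 for Aptx, are not drawn.

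Ratios of genes within a library need no scaling between libraries, and each pairs 2 genes of the pathway. They use the same counts as the differences above. Parp1 and Parp2 differed in opposite directions there, as did Polb and Fen1. The ratios of these 2 pairs thus restate those differences and are no separate support. The ratio of Parp1 to Parp2, both per kb of exon, had a lowest, median and highest value of 5.25, 6.19 and 7.07 in the 12 NeuN+ libraries and of 1.83, 2.02 and 2.15 in the 12 NeuN- libraries. The fractions did not overlap, and the ratio was 3.06-fold higher in NeuN+ (permutation test over 12 against 12 libraries, two-sided, adjusted p = 3e-05). The ratio of Polb to Fen1 had 24.3, 41.5 and 49.2 in NeuN+ and 11.4, 13 and 16.4 in NeuN-, again without overlap (2.91-fold, permutation test, adjusted p = 3e-05). For both ratios the raw p of 2e-05 is the smallest that 100000 resamples can give. The ratio of Lig3 to Lig1 had 1.82, 2.17 and 2.97 in NeuN+ and 1.44, 1.65 and 2.12 in NeuN-, and here the fractions overlapped, with a 1.33-fold higher mean in NeuN+ (permutation test, adjusted p = 8e-05). The 12 libraries of a fraction span 4 genotypes, and within 1 genotype 3 against 3 libraries cannot go below an exact p of 0.1. Within genotypes, the log2 difference ran from 1.45 to 1.70 for Parp1 to Parp2, from 1.19 to 1.71 for Polb to Fen1 and from 0.31 to 0.54 for Lig3 to Lig1. Fen1, Lig3 and Lig1 carry the shared exons described above, and Polb shares 1.14% of its exon bases with Gm26909. Parp2 shares none and Parp1 next to none.

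**Figure D3:**
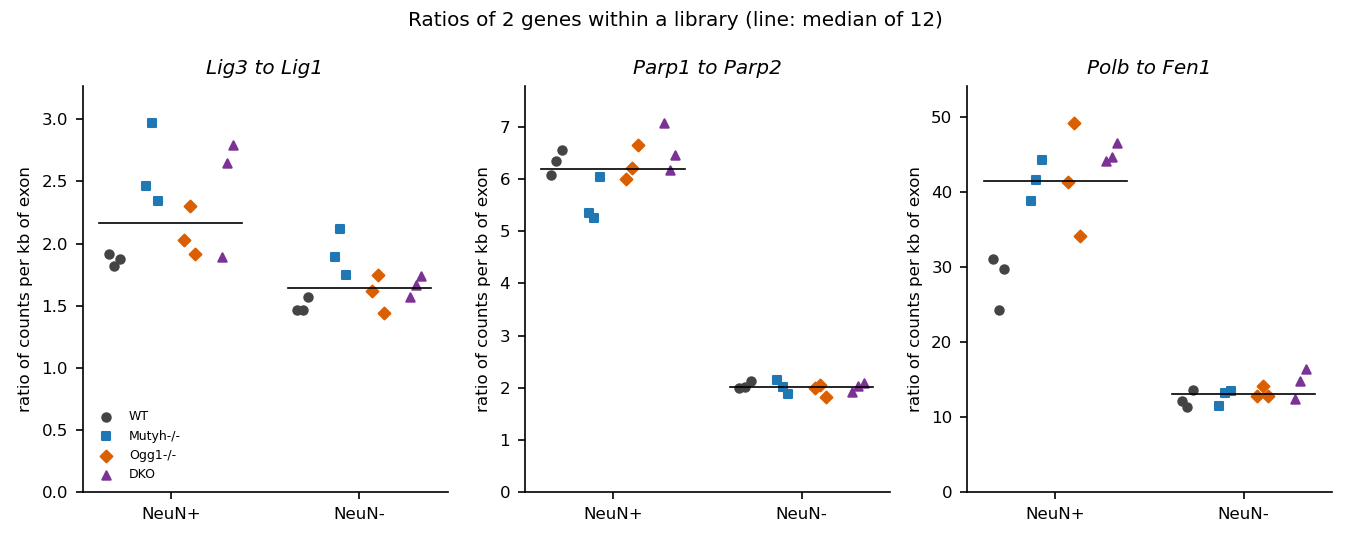
Ratio of counts per kb of exon of 2 genes within a library (y axis, starting at 0) for Lig3 to Lig1, Parp1 to Parp2 and Polb to Fen1; each point is a library, colour and shape give the genotype, and the line is the median of 12. The NeuN+ and NeuN- libraries are apart for Parp1 to Parp2 and Polb to Fen1 and overlap for Lig3 to Lig1.

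The next comparison asks whether the loss of Mutyh, Ogg1 or both altered the RNA of the repair steps that follow them. No gene of the 9 was a DEG in any knockout by edgeR's quasi-likelihood test, with DEG limits of 0.05 on the adjusted p and 0.5 on the size of the log2 fold change. In the order of knockouts used above, the background share of DEGs was 0.428%, 0.574% and 0.302% of 30132 genes in NeuN+ and 0.273%, 0.229% and 0.116% of 31863 genes in NeuN-. By the adjusted p alone the count was also 0, beside 0.641%, 1.1% and 0.494% of all genes in NeuN+ and 0.32%, 0.342% and 0.179% in NeuN-. At an unadjusted p under 0.05 there were 4, 1 and 3 of the 9 genes in NeuN+, beside 18.7%, 12.3% and 13.5% of all genes, and 2, 1 and 0 in NeuN-, beside 13.7%, 11.8% and 12.4%. DESeq2's Wald test called 0 DEGs among them as well, and edgeR's likelihood ratio test called 1, Fen1 in DKO of NeuN+. At this number of libraries, intervals were narrow for the well-counted genes: Parp1 in NeuN+ had a 95% confidence interval of -0.13 to 0.11 for the loss of Mutyh, -0.10 to 0.14 for that of Ogg1 and -0.04 to 0.20 for both. For Apex1 they were wider, from -0.47 to 0.00 in Ogg1-/- of NeuN+.

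Lig1 had the smallest unadjusted p in Mutyh-/-. Its NeuN+ libraries had 5.01, 4.05 and 4.965 CPM against 6.07, 6.67 and 6.125 CPM in WT, and the groups did not overlap (log2 fold change -0.42, SE 0.122, adjusted p = 0.105 by the quasi-likelihood test). In NeuN- nuclei it had 11.7, 9.84 and 12.0 CPM against 14.5, 13.7 and 12.4, also without overlap (log2 fold change -0.28, SE 0.103, adjusted p = 0.268). In Ogg1-/- the values of Lig1 overlapped those of WT in both fractions (-0.09 and -0.09), and in DKO they were -0.29 and -0.18 (adjusted p = 0.314 and 0.491). In NeuN+ of Mutyh-/- the adjusted p of Lig1 was under 0.05 in 3 of 9 alternative analyses of all libraries (range 0.0385 to 0.107) and without NeuN+ DKO replicate 1 (0.0496).

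Fen1 had its lowest mean in NeuN+ nuclei of DKO. Its NeuN+ libraries had 1.2, 1.256 and 1.225 CPM in DKO, 1.56, 1.45 and 1.19 in Mutyh-/- and 1.31, 1.17 and 1.495 in Ogg1-/-, against 1.59, 1.93 and 1.77 in WT. All 9 knockout libraries lay below all 3 WT libraries, and the 3 comparisons share these WT libraries. The share of all genes that separate in this way was not counted, and Fen1 had only 75 to 122 counts in NeuN+ libraries. The log2 fold changes were -0.54 (SE 0.148, adjusted p = 0.129), -0.34 (adjusted p = 0.244) and -0.43 (adjusted p = 0.212), in this order of knockouts. In DKO of NeuN+ the adjusted p ranged from 0.0498, with the likelihood ratio test, to 0.163 over the alternatives with all libraries. Gm10143, which shares most exon bases of Fen1, had -0.49, -0.36 and -0.45 in the same comparisons, and Tmem258 had -0.07, -0.44 and -0.19. In NeuN- nuclei Fen1 had 2.59, 2.18 and 1.90 CPM in DKO and overlapped WT (-0.26, adjusted p = 0.417), and Mutyh-/- was at 0.01.

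Polb and Parp2 had positive values in NeuN+ nuclei of Mutyh-/-. Polb had 98.3, 98.3 and 85.4 CPM against 80.4, 76.1 and 85.6 in WT, where replicate 3 of the knockout lay just below the highest WT library (log2 fold change 0.23, SE 0.0666, adjusted p = 0.108). Parp2 had 9.70, 10.55 and 8.65 CPM against 8.53, 8.54 and 8.42, without overlap (0.18, SE 0.0769, adjusted p = 0.221). Without NeuN+ Mutyh-/- replicate 3, Polb was at 0.30 (adjusted p = 0.0142) and Parp2 at 0.27 (adjusted p = 0.0434), still under the fold limit of a DEG. With all libraries, the adjusted p of Polb ranged from 0.0338 to 0.139 over 9 alternatives and that of Parp2 from 0.212 to 0.31. In NeuN+ of Ogg1-/- and DKO, Polb was at 0.11 and 0.14 (quasi-likelihood test, adjusted p = 0.532 and 0.368), without overlap with WT in DKO. Parp2 was at 0.02 in both. In NeuN- of Mutyh-/- the values were 0.04 for Polb and -0.04 for Parp2.

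Among the other genes, Apex1 in Ogg1-/- of NeuN+ was at -0.23 (SE 0.110, adjusted p = 0.408), without overlap with WT. Xrcc1 in Mutyh-/- of NeuN- had 20.3, 18.6 and 19.4 CPM against 17.5, 17.5 and 18.25 (0.12, adjusted p = 0.303), and Parp1 in Ogg1-/- of NeuN- had 37.4, 35.5 and 34.9 CPM against 38.3, 39.1 and 38.75 (-0.12, adjusted p = 0.318), both without overlap. Groups without overlap were found for 3, 2 and 3 of the 9 genes in NeuN+, in the order of knockouts above (21.6%, 20.1% and 17.5% of all genes) and for 2, 2 and 1 in NeuN- (19.2%, 19.4% and 16.8%). Lig3 and Aptx ranged from -0.05 to 0.07 over all 6 comparisons with WT. The values of some cell type markers also departed from WT in NeuN- nuclei. The 8 neuronal markers had a median log2 fold change of -0.30 in DKO (range -0.51 to -0.06) and -0.28 in Ogg1-/- (-0.47 to -0.04), the 6 astrocyte markers 0.25 (0.13 to 0.51) and 0.25 (0.16 to 0.52), and the 5 oligodendrocyte markers -0.23 (-0.48 to -0.10) and -0.22 (-0.43 to -0.06). Of these markers Aldh1l1 of astrocytes was a DEG, in Ogg1-/- (0.52, adjusted p = 0.0483). The summed neuronal level was 469.7 to 559.5 CPM in WT, 391.9 to 472.4 in DKO and 398.8 to 479.8 in Ogg1-/-. The summed level of the choroid plexus markers varied widely among the NeuN- libraries, from 34.2 to 61.7 CPM in WT and from 7.20 to 220.3 CPM in DKO. In NeuN+ nuclei the medians of some glial lists also lay away from 0, with 0 DEGs among the markers. The median log2 fold change in Mutyh-/-, Ogg1-/- and DKO was -0.22, -0.105 and -0.25 for astrocytes. It was -0.19, 0.01 and -0.43 for oligodendrocytes, -0.14, -0.20 and -0.47 for their precursors and -0.02, -0.04 and -0.03 for microglia. At an unadjusted p under 0.05 there were 1, 0 and 1 of 6 astrocyte markers and 0, 1 and 3 of 5 oligodendrocyte markers. Among 3 precursor markers there were 1, 0 and 2, and among 4 tested microglial markers 1, 0 and 0. The shares of all genes were 18.7%, 12.3% and 13.5%. The summed oligodendrocyte level in NeuN+ was 119.1 to 122.9 CPM in WT and 117.5 to 132.4 CPM in DKO. The part of these markers in the values of the 9 genes was not tested.

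**Figure D4:**
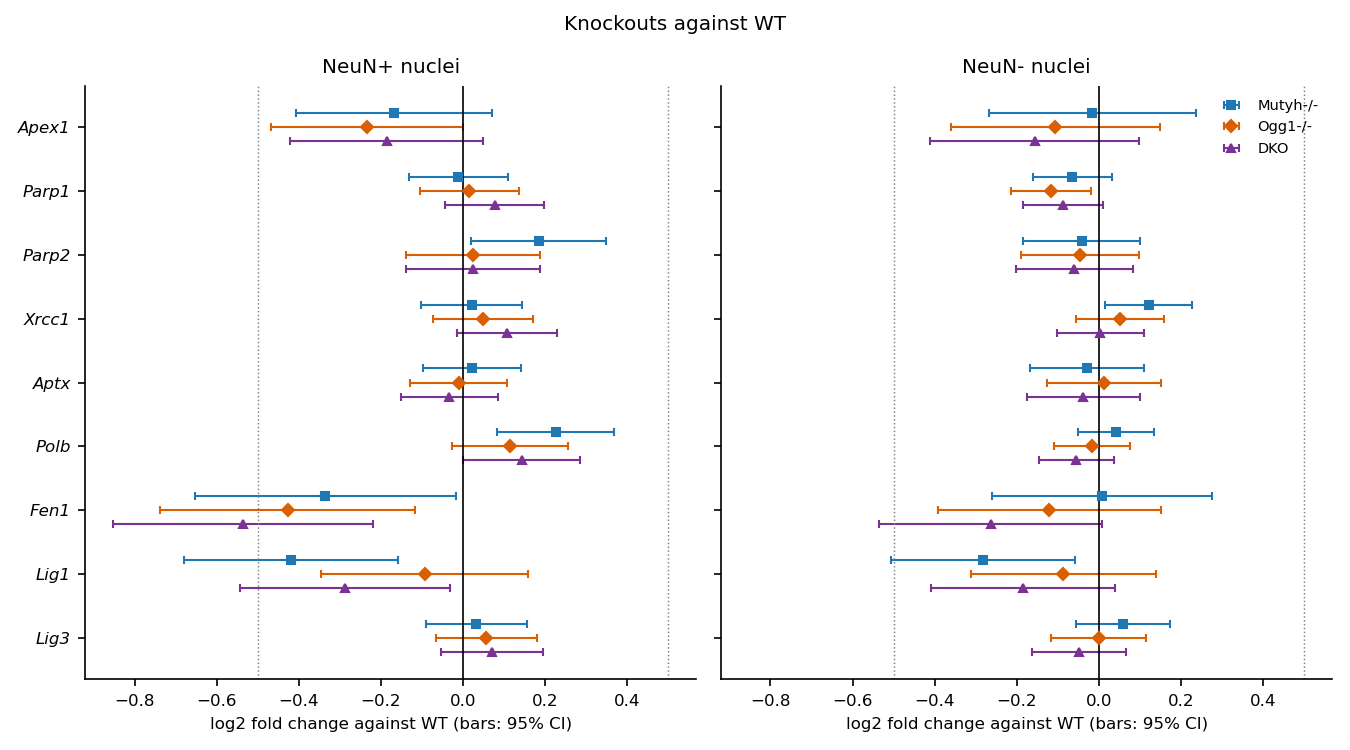
Log2 fold change of each knockout against WT (x axis) in NeuN+ nuclei (left) and NeuN- nuclei (right), with the 95% confidence interval of edgeR's fit; dotted lines mark the DEG limit of -0.5 and 0.5. The lowest values are those of Fen1 in DKO (-0.54) and Ogg1-/- (-0.43) and of Lig1 in Mutyh-/- (-0.42), all in NeuN+, and none of the 54 values is a DEG.

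Direct comparisons among the knockouts gave no gene with an adjusted p under 0.05 by the quasi-likelihood test. The background was 0.252% of all genes for DKO against Ogg1-/-, 0.163% for DKO against Mutyh-/- and 0.654% for Ogg1-/- against Mutyh-/- in NeuN+, and 0.157%, 0.148% and 0.788% in NeuN-. At an unadjusted p under 0.05 there were 0, 0 and 1 of the 9 genes in NeuN+ (4.26%, 6.86% and 12.7% of all genes) and 0, 3 and 0 in NeuN- (4.34%, 11% and 11.5%). The 1 gene was Lig1, at 0.33 in Ogg1-/- against Mutyh-/- (adjusted p = 0.278). The 3 genes were Xrcc1 (-0.12, adjusted p = 0.414), Polb (-0.10, adjusted p = 0.439) and Fen1 (-0.27, adjusted p = 0.454) in DKO against Mutyh-/-.

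The effect of a knockout in NeuN+ minus that in NeuN- was tested in the fit of all 24 libraries and passed for 0 genes (0.0209%, 0.0537% and 0.0567% of all genes, in the order of knockouts above), with 2, 0 and 2 genes at an unadjusted p under 0.05 (8.58%, 7.09% and 9.4% of all genes). These were Parp2 (0.21, 95% confidence interval 0.01 to 0.42, adjusted p = 0.559) and Polb (0.17, adjusted p = 0.577) for Mutyh-/-, and Polb (0.21, 0.04 to 0.38, adjusted p = 0.438) and Parp1 (0.17, adjusted p = 0.450) for DKO. Departure from additivity, the effect in DKO minus the effects of both single knockouts, passed for 0 genes in either fraction (0.159% and 0.122% of all genes), with 0 genes in NeuN+ and 1 in NeuN- at an unadjusted p under 0.05 (7.95% and 8% of all genes), Xrcc1 (-0.17, adjusted p = 0.593). For Lig1 in NeuN+ it was 0.23 (95% confidence interval -0.14 to 0.59), and for Fen1 0.23 (-0.22 to 0.68).

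The neighbouring steps of the pathway were read from lists of genes that work with the 9. The counts are read against all genes tested in WT, of which 36.1% were higher in NeuN+, 36.3% higher in NeuN- and 42.9% past the limit of 1. Among 11 DNA glycosylases, which make the substrate of Apex1, 3 were higher in NeuN+ of WT and 5 higher in NeuN- (median -0.20), and 3 passed the limit of 1, all higher in NeuN-, led by Neil3 (-3.17, adjusted p = 1.8e-08) and Nthl1 (-1.79, adjusted p = 3.39e-12). Both act on oxidised bases. Of 7 genes of end processing and scaffolds, 5 were higher in NeuN+ and 2 in NeuN- (median 0.20), and the relative of Apex1, Apex2, was the sole gene past 1 (1.29, adjusted p = 1.84e-12). Of 8 tested genes that make, read or remove ADP-ribose, 0 were higher in NeuN+ and 6 in NeuN- (median -0.32), with Parp3 at -3.25 (adjusted p = 1.75e-12).

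The long-patch list holds the replicative polymerases, the sliding clamp Pcna with its loaders, and the single-strand binding proteins, which work with Fen1 and Lig1. Of its 17 genes, 11 were higher in NeuN- (36.3% of all genes) and 2 in NeuN+ (36.1%), with a median of -0.62, 4 passed the limit of 1 (42.9%), and the lowest were Pole (-1.80, adjusted p = 1.32e-07) and Pold1 (-1.61, adjusted p = 1.3e-12), the catalytic subunits of the polymerases epsilon and delta. Of 10 genes of dividing cells, 8 were higher in NeuN- (median -1.37), led by Mcm3 (-5.24) and Cdk1 (-5.23), and 1, Mki67, was higher in NeuN+ (0.80). In the fit of NeuN+ libraries alone 7 of the 10 passed the count filter, so some of these differences rest on low NeuN+ counts. The summed level of these 10 genes ran from 24 to 29.1 CPM in NeuN+ and from 35.9 to 46.5 CPM in NeuN-, and their part in the differences of Lig1 and Fen1 was not tested.

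**Figure D5:**
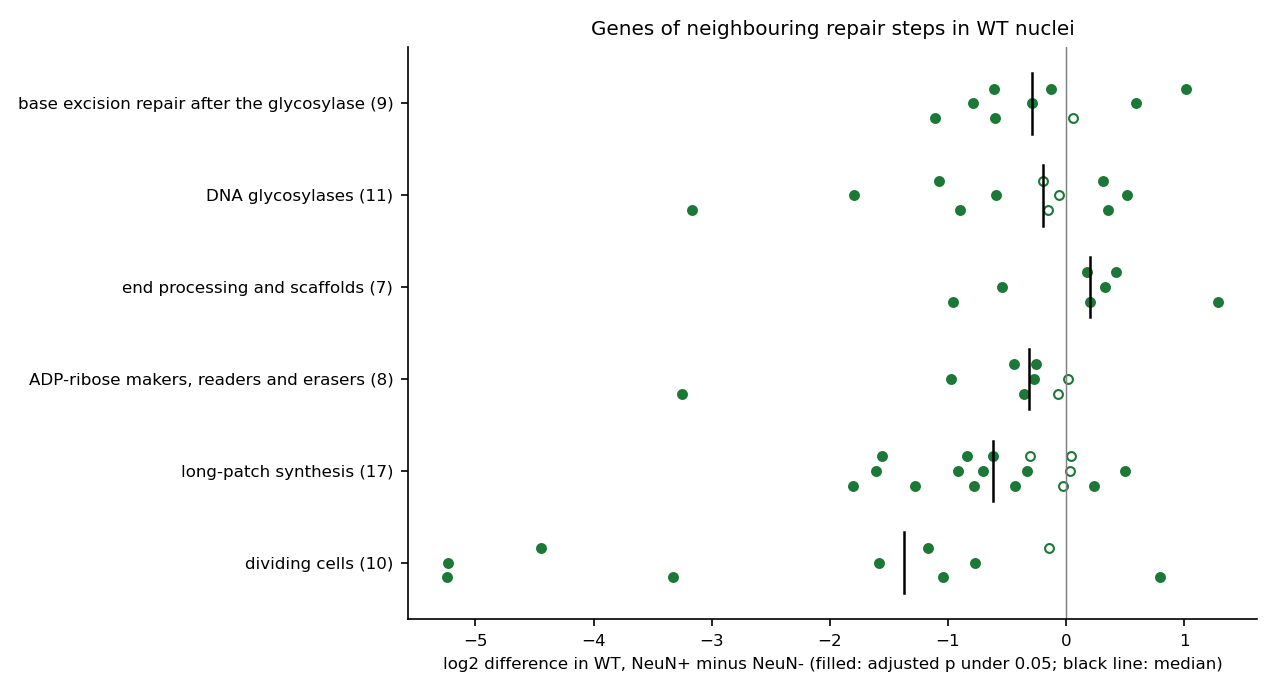
Log2 difference between NeuN+ and NeuN- nuclei of WT (x axis, positive values are higher in NeuN+) for the 9 genes and 5 lists, 1 point per gene, filled where the adjusted p is under 0.05; black lines are medians and the numbers of tested genes stand in brackets. The medians of the long-patch list (-0.62) and of dividing cells (-1.37) lie left of that of the 9 genes (-0.29).

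Against WT, the pathway lists held 2 genes that were DEGs in a knockout. Mutyh itself was a DEG in Mutyh-/- and DKO, as given above, and Pole3, an accessory subunit of polymerase epsilon, was lower in Ogg1-/- of NeuN+ (-0.55, SE 0.119, adjusted p = 0.0418), with 1.97 to 2.33 CPM against 2.92 to 3.30 in WT. Against the same WT libraries Pole3 was at -0.50 in Mutyh-/- (adjusted p = 0.0678) and -0.44 in DKO (adjusted p = 0.121).

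Likeness between genes was measured by Pearson's r of log2 levels over the 24 libraries after removing the mean of each fraction, which describes shared variation between libraries that also share depth and handling. Differences between genotypes were not removed. Among the 9 genes, the highest value was between Apex1 and Fen1 (0.67) and the lowest between Lig1 and Polb (-0.68), while Lig1 and Lig3 had -0.05 and Parp1 and Parp2 0.09. Among all 33522 other genes, the closest to Polb were Specc1 (0.94) and Gm44503 (0.93), and the closest to Lig1 were Gm35060 (0.90) and Optn (0.89). Lig3 was closest to Mau2 (0.87) and Clcn7 (0.82), and Fen1 to Gm10143 (0.96), with which it shares exons, and Rnf187 (0.85). The values were lower for Xrcc1 (Gm5171 0.78, Usp48 0.76), Parp2 (Extl2 0.77, Gm17231 0.77), Apex1 (Tomm22 0.74, Rpl27 0.74), Parp1 (Tbc1d13 0.74, 4930500A05Rik 0.72) and Aptx (Tbc1d7 0.72, Bnip1 0.72).

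By GENCODE positions on GRCm38, Apex1 lies on chromosome 14 from 50924968 to 50927139 and Parp2 on the same chromosome from 50807841 to 50821301, both on the plus strand. Xrcc1 (24546289 to 24573440) and Lig1 (13277283 to 13311433) lie on the plus strand of chromosome 7. Lig3 lies on chromosome 11 (82781108 to 82804274) and Parp1 on chromosome 1 (180568924 to 180601254), also on the plus strand. Polb (chromosome 8, 22628126 to 22653435), Aptx (chromosome 4, 40682382 to 40703194) and Fen1 (chromosome 19, 10199132 to 10204169) lie on the minus strand. All 9 are protein-coding genes.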

How the data were processed

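Nuclear RNA of 24 libraries was sequenced in pairs. The authors aligned reads to GRCm38 with HISAT2 2.1.0 and deposited raw counts of read pairs per gene of Ensembl release 102, made with featureCounts, in 1 table per nuclear fraction. Handling of strand and of overlapping genes is not given in the sources used here. Counts were analysed with edgeR 4.0.16 in R 4.3.3: low counts were removed with filterByExpr, TMM factors were applied and the quasi-likelihood test was used with Benjamini-Hochberg adjustment over all genes. Genotypes were compared in a fit per fraction (30132 genes in NeuN+, 31863 in NeuN-), and fractions in a fit of all 24 libraries (33523 genes). Exon lengths came from GENCODE. Ratios were tested by permutation (SciPy 1.17.1). The scripts were tested on simulated counts. The 9 genes and all lists were chosen with earlier results of these data known. Named genes are the 9 genes, the knocked-out genes, markers, DEGs of the pathway lists, the 2 largest differences per list and direction between fractions of WT, and the 2 most alike genes. Alternatives were DESeq2 1.42.0, other size factors, filters, tests and fits, a replicate block and leaving out each library, and scaling to total counts was added after seeing the data.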

Additional observations from a re-analysis of the deposited data

How the results depend on the processing

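No call past the limits on adjusted p and fold reversed under any alternative. In WT, the count of genes past a log2 difference of 1 between NeuN+ and NeuN- was 2, and it was 1 with DESeq2 size factors, without a low-count filter, with at least 10 counts in every library, with DESeq2's Wald test, and 1 to 2 when a library was left out, since Parp1 lies at the limit. Without the fold limit the count was 8 in WT, Mutyh-/- and Ogg1-/- and 7 in DKO, by construction. In DKO against WT of NeuN+, edgeR's likelihood ratio test called 1 gene in place of 0; the cause was not tested. Within single genotypes, the log2 difference of the ratio was 0.31 in WT, 0.43 in Mutyh-/-, 0.38 in Ogg1-/- and 0.54 in DKO for Lig3 to Lig1, 1.62, 1.45, 1.69 and 1.70 for Parp1 to Parp2, and 1.19, 1.71, 1.63 and 1.64 for Polb to Fen1, where an exact p cannot go below 0.1. Scaling to total counts moved the median of all genes between the fractions to values from -0.25 to -0.32 and turned the sign of Aptx in all 4 genotypes, with an adjusted p under 0.05 in 3 of them. By the adjusted p alone, the calls of Xrcc1 in WT and Ogg1-/- and of Apex1 in WT and DKO were lost in some fits, as given with each gene.

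Same-numbered NeuN+ and NeuN- libraries of a genotype tended to deviate together (mean r 0.16, 8 of 12 pairs above 0.1) more than differently numbered ones (mean r -0.08, 1 of 24 above 0.1), which is a hint from the data of a shared source, while not every pair passed 0.1 and no label states one. Across genotypes, same-numbered libraries had a mean r of -0.01 in NeuN+ and 0.06 in NeuN-. The fits within a fraction were therefore kept without a block. The fit of all 24 libraries also had no block, although its fractions may be paired. A replicate block changed 0 of the 189 calls, kept the count of 2 in each comparison of fractions and of 0 in each comparison of genotypes, and gave an exact p of 0.000488 for each ratio. Depth limits Fen1, Apex1 and Lig1 most, and 3 libraries per group limit every genotype comparison.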
